A study of Camelina sativa with 12 samples.

Results

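Roots of 2 kinds of transgenic Camelina sativa were set against each other: plants carrying acdS under the constitutive CaMV 35S promoter (35S::acdS, 3 libraries) and plants carrying acdS behind the root promoter rolD (rolD::acdS, 3 libraries). These 6 libraries were chosen by their labels from the 12 of the series, and every gene with a value of at least 1 CPM (reads per gene scaled to a common library size) in at least 3 of the 12 libraries was tested, which left 48099 of 49932 genes. The other 6 libraries, 3 of roots of the wild-type DH55 line in mock-treated soil (control) and 3 of DH55 roots from soil inoculated with Pseudomonas migulae 8R6 (8R6), entered the same fit and are given where a level needs a baseline. All 12 libraries, the control ones included, came from the roots of 28-day-old plants that had received 192 mM NaCl (15 dS per m) for 21 days, so no unsalted root is in the comparison. The 35S::acdS and rolD::acdS plants grew in soil that was mock-treated like that of the control. Both transgenes encode the ACC deaminase of Pseudomonas sp. UW4 in the DH55 background, as homozygous single-insert lines.

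The sources used here do not say whether the 3 libraries of a promoter came from more than 1 insertion, so the promoter and the place of insertion cannot be told apart. The rolD promoter comes from Agrobacterium rhizogenes and is described as root-specific, whereas the 35S construct has a doubled enhancer and is active in shoots as well. The acdS transcript itself had 0 rows in the table, and its level in each line is not analysed here. Libraries were made from bulk root RNA, in which fewer cells of a type and less RNA per cell cannot be told apart.

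ACC deaminase splits 1-aminocyclopropane-1-carboxylate, the direct precursor of ethylene, into ammonia and a keto acid, so that a cell that makes the enzyme has less precursor to turn into the hormone. Ethylene acts in roots together with jasmonate, auxin, abscisic acid and salicylic acid, and it takes part in growth under salt, in the response to low oxygen and in defence. Ethylene response factors of the AP2/ERF family carry much of its transcriptional output, and jasmonate shares several of these targets. Sodium is handled in roots by transporters such as HKT1, which withdraws it from the xylem sap in Arabidopsis, and the osmotic part of salt stress is met with sugars, inositol derivatives and polyamines.

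The study had designed droplet digital PCR oligonucleotides for 7 genes, of which 3 had a row that passed the filter. Their primers and probes are printed because they define the transcripts that could be measured again in both lines. For Csa07g039380 on chromosome 7, annotated by the study as a Kunitz family trypsin and protease inhibitor, they were, 5′ to 3′:
Csa07g039380 forward: ccgccattacatttcccttctgt
Csa07g039380 reverse: cctctgtttatatgagaagctaaccgg
Csa07g039380 probe: cccaaacactccttccgtaccag

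For Csa20g044800 on chromosome 20, annotated as myrosinase-binding protein 2, a lectin-type partner of the enzyme that breaks down glucosinolates, they were:
Csa20g044800 forward: gaatgcatcatatctgttggtggaag
Csa20g044800 reverse: gcgtccatggaatccaagaagctttcctc
Csa20g044800 probe: cagttctgatcaaatcgttgttcaaac

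For a GH3 gene on chromosome 17, whose family joins auxin or jasmonate to amino acids, they were as follows. The study spells this gene Csa17G80380, which has no row, and it was matched to Csa17g080380 by adding a 0, a match that is inferred.
GH3 forward: ccggccatcaaaatgtaattcagag
GH3 reverse: cgttaacaaccacaaccttgtctctc
GH3 probe: tgccccgacatcaaccaaagt

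Csa20g044800 had 2, 0 and 1 CPM in 35S::acdS roots, against 18, 3 and 27 CPM in rolD::acdS roots and 7, 13 and 0 CPM in control roots. The libraries of the lines did not overlap, but the control libraries spanned both, and the log2 difference of -3.30 (SE 1.15), the lowest of all tested genes, had an adjusted p of 0.565 in limma. Csa07g039380 was listed at 0 in all 3 35S::acdS libraries, against 1, 1 and 3 CPM in rolD::acdS roots and 1, 7 and 0 CPM in control roots. GH3 Csa17g080380 had 8, 5 and 2 CPM in 35S::acdS roots, against 3, 1 and 4 CPM in rolD::acdS roots and 1, 1 and 0 CPM in control roots, so the lines overlapped. Csa20g044800 and Csa07g039380 were singled out after their values were seen.

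Few genes separated the lines once the number of genes was taken into account. A gene was called when its limma test, on log2(CPM + 0.5) with Benjamini-Hochberg adjustment over all 48099 genes, gave an adjusted p of at most 0.05 and a log2 difference beyond 0.8 in size. The test called 2 genes higher in 35S::acdS roots (0.00416% of those tested) and 0 genes lower (0%). Both called genes, Csa11g007100 and Csa20g039340, have no annotation in the sources used here. Each had 1 CPM in every 35S::acdS library, 0 CPM in every rolD::acdS library and 1 CPM in every control and 8R6 library. Their fitted log2 difference of 1.58 (SE 0.16, adjusted p = 0.0345 in limma) follows from the pseudocount, and their SE from values that were equal within every group. Over all genes, 24 had exactly 1 CPM in each 35S::acdS library and 0 in each rolD::acdS library, and 14 had the reverse. The next smallest adjusted p of any gene was 0.135.

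Without adjustment, 1690 genes reached a p of at most 0.05 as higher in 35S::acdS (3.51%) and 1930 as lower (4.01%), together 7.53% of the tested genes where 5% would be 2405 genes. The 3 libraries of 35S::acdS all lay above the 3 of rolD::acdS for 1721 genes (3.58%) and all below for 1686 genes (3.51%). If the 3 libraries of each line were in random order, 5% of genes without ties would separate in each direction. Neither share was above that level, and separate libraries are given below only as a description. The median log2 difference over all tested genes was 0.00, with 22364 genes above 0 and 22363 below. The genes named in the following paragraphs are therefore described by their value in each library, some also with the log2 difference and its error, and none of them had an adjusted p below 0.135 in limma.

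The 2 kinds of line were about as similar to each other as the replicates of 1 line were. Pearson correlations of log2(CPM + 0.5) across genes were 0.943 to 0.969 between libraries of different lines (9 pairs) and 0.948 to 0.974 within a line (6 pairs). With control libraries they were 0.927 to 0.973 for 35S::acdS and 0.94 to 0.972 for rolD::acdS. The closest library to 35S::acdS replicate 2 and to rolD::acdS replicate 1 was control replicate 1, at 0.973 and 0.972. Sums of the deposited values were 894793 to 918333 over the 6 libraries, and size factors computed over all 12 were 0.9889 to 1.015. The rolD::acdS replicate 1 library stood apart: 1267 genes lay at least 1 log2 unit from both other rolD::acdS libraries, against 417 and 463 genes for replicates 2 and 3. Without it, 5621 genes reached an unadjusted p of at most 0.05, against 3620 with it, and 4 genes were called higher and 1 lower. The 35S::acdS libraries had 1042, 448 and 824 such genes.

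**Figure D1:**
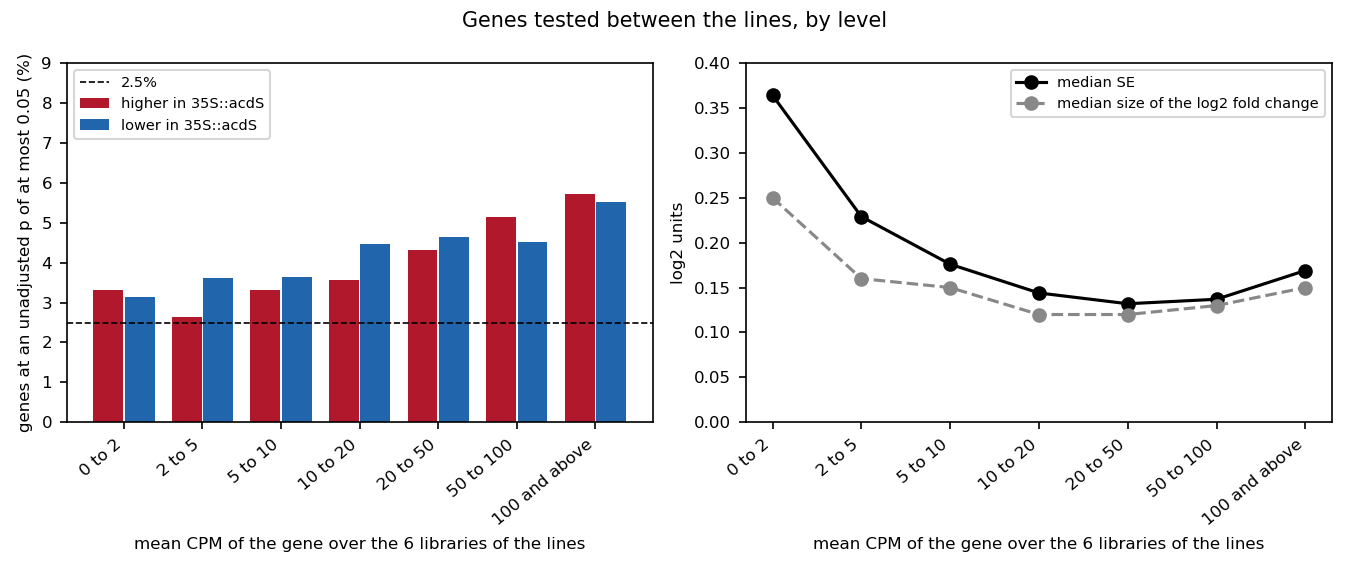
Share of tested genes at an unadjusted p of at most 0.05 (left, % of genes in the bin, higher in 35S::acdS in red and lower in blue, dashed line at 2.5%) and precision (right, median standard error and median size of the log2 difference) by mean CPM over the 6 libraries of the lines. The share in both directions together was 6.43% below 2 CPM and 11.3% at 100 CPM and above, while the median SE was 0.364 and 0.169 log2 units in those bins. The median SE was smallest between 20 and 50 CPM, at 0.132 log2 units.

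Precision rose with the level of the gene up to 50 CPM and fell again above it, as the plot of shares and standard errors by level shows. For the 3996 genes with a mean under 2 CPM, the median 95% confidence interval of the log2 difference reached 0.804 to each side. It reached 0.291 for the 7985 genes between 20 and 50 CPM, so that a difference of 0.8 was well outside the usual error there and inside it for the lowest genes. At 100 CPM and above the interval was wider again, at 0.373 to each side. Across the 20 chromosomes, the share of genes at an unadjusted p of at most 0.05 was between 6.59% on chromosome 17 and 8.57% on chromosome 2.

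Genes of known function were grouped by the annotation that the study gave to those it had listed against the control. There were 28 lists, 27 by function and 1 of genes listed for both lines, with 236 genes of which 224 were tested. They were picked by the study from these very libraries, for a difference of 35S::acdS, rolD::acdS or 8R6 roots from the control, so their difference between the lines is not independent evidence of a direction. Of the 224, 0 were called between the lines by limma, and at an unadjusted p of at most 0.05 there were 31 higher and 81 lower in 35S::acdS roots (27 and 74 without rolD::acdS replicate 1). The higher count rested more on single libraries: with 1 library of either line left out it was 14 to 29, lowest when replicate 2 of rolD::acdS was left out and 17 when replicate 3 of 35S::acdS was, while the lower count was 69 to 77. Those listed for 35S::acdS, 121 genes, had 24 higher and 35 lower, with a median log2 difference of -0.14. The 72 genes listed for rolD::acdS had 4 higher and 42 lower, with a median of -1.01. A gene listed because it was high in the rolD::acdS libraries, or low in those of 35S::acdS, was likely to be lower in 35S::acdS by that choice. One listed because it was low in rolD::acdS or high in 35S::acdS was likely to be higher. The same values of the lines stand in both comparisons, and this limit holds for every list below. Some genes stand in more than 1 list. Both lines were set against the same 3 control libraries, so their differences from the control are given side by side only.

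**Figure D2:**
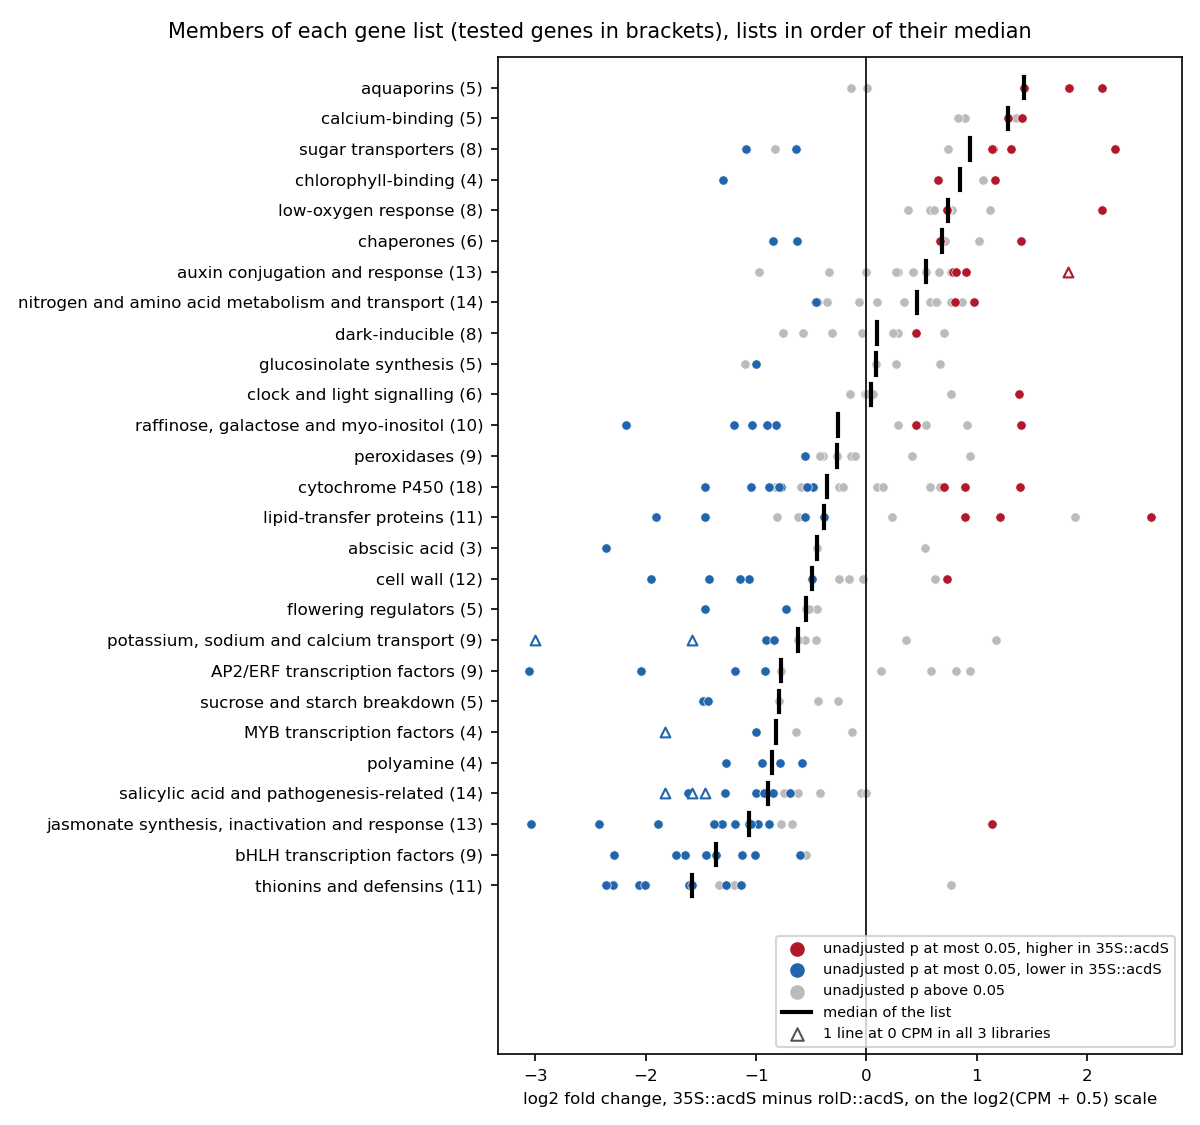
Log2 difference, 35S::acdS minus rolD::acdS, of each tested member of the 27 lists by function (x axis, log2(CPM + 0.5) scale), with the median of each list as a black bar. Red and blue points passed an unadjusted p of at most 0.05, triangles are genes with 1 line at 0 CPM in all 3 libraries, whose position depends on the pseudocount, and the medians run between -1.58 for thionins and defensins and 1.43 for aquaporins.

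Jasmonate genes had lower values in 35S::acdS than in rolD::acdS roots. Of 13 tested, 10 were lower and 1 higher at an unadjusted p of at most 0.05, 7 had libraries that did not overlap, and the median log2 difference was -1.06 against 0.00 over all genes. With 1 library of either line left out, 8 to 11 were lower and the median was -1.35 to -0.93. All but OPR1 (Csa16g040840) had been listed for rolD::acdS, so the direction was in part fixed by that choice. The list covers the synthesis of jasmonate from lipid peroxides, its inactivation, and the JAZ repressors that jasmonate both destroys and induces. JR1 (Csa01g019170), a jasmonate-responsive lectin, had 84, 98 and 108 CPM in 35S::acdS roots, against 252, 196 and 323 CPM in rolD::acdS roots and 151, 127 and 111 CPM in control roots. Every 35S::acdS library lay below every control library and every rolD::acdS library above, and the log2 difference between the lines was -1.38 (95% interval -1.90 to -0.86, adjusted p = 0.268 in limma). AOS (Csa20g066350), allene oxide synthase at the entry to jasmonate synthesis, had 29, 24 and 29 CPM in 35S::acdS roots, against 55, 44 and 76 CPM in rolD::acdS roots. The control values of AOS, 35, 29 and 35 CPM, were close to those of 35S::acdS. HPL1 (Csa11g035060), a hydroperoxide lyase that uses the same peroxides for other products, had 3 CPM in every 35S::acdS library, against 5, 6 and 7 CPM in rolD::acdS and 3 CPM in every control library.

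The JAZ repressors differed less evenly. JAZ10 Csa08g005100 had 15, 11 and 18 CPM in 35S::acdS roots, against 37, 21 and 48 CPM in rolD::acdS roots. Its homeologs Csa13g015820 and Csa20g018590 had log2 differences of -1.31 (SE 0.386) and -0.98 (SE 0.347), with libraries that overlapped. In all 3 the lowest rolD::acdS value was that of replicate 2. Hydroxyjasmonate sulfotransferase ST2A, which inactivates a jasmonate derivative, had the widest spread. ST2A Csa20g009360 had 9, 4 and 22 CPM in 35S::acdS roots, against 162, 45 and 72 CPM in rolD::acdS roots and 29, 4 and 22 CPM in control roots. Its log2 difference between the lines was -3.04 with a 95% interval of -5.01 to -1.07 (adjusted p = 0.519 in limma). The homeolog Csa13g009030 had 14, 4 and 20 CPM in 35S::acdS against 119, 29 and 58 CPM in rolD::acdS, and the related ST2B (Csa08g057450) had 12, 4 and 16 CPM in 35S::acdS against 70, 23 and 28 CPM in rolD::acdS. In all 3 sulfotransferase genes replicate 1 was the highest rolD::acdS library. OPR1 (Csa16g040840), an oxophytodienoate reductase, ran the other way with 30, 22 and 39 CPM in 35S::acdS roots, against 28, 8 and 10 CPM in rolD::acdS roots, and the lines overlapped through rolD::acdS replicate 1.

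**Figure D3:**
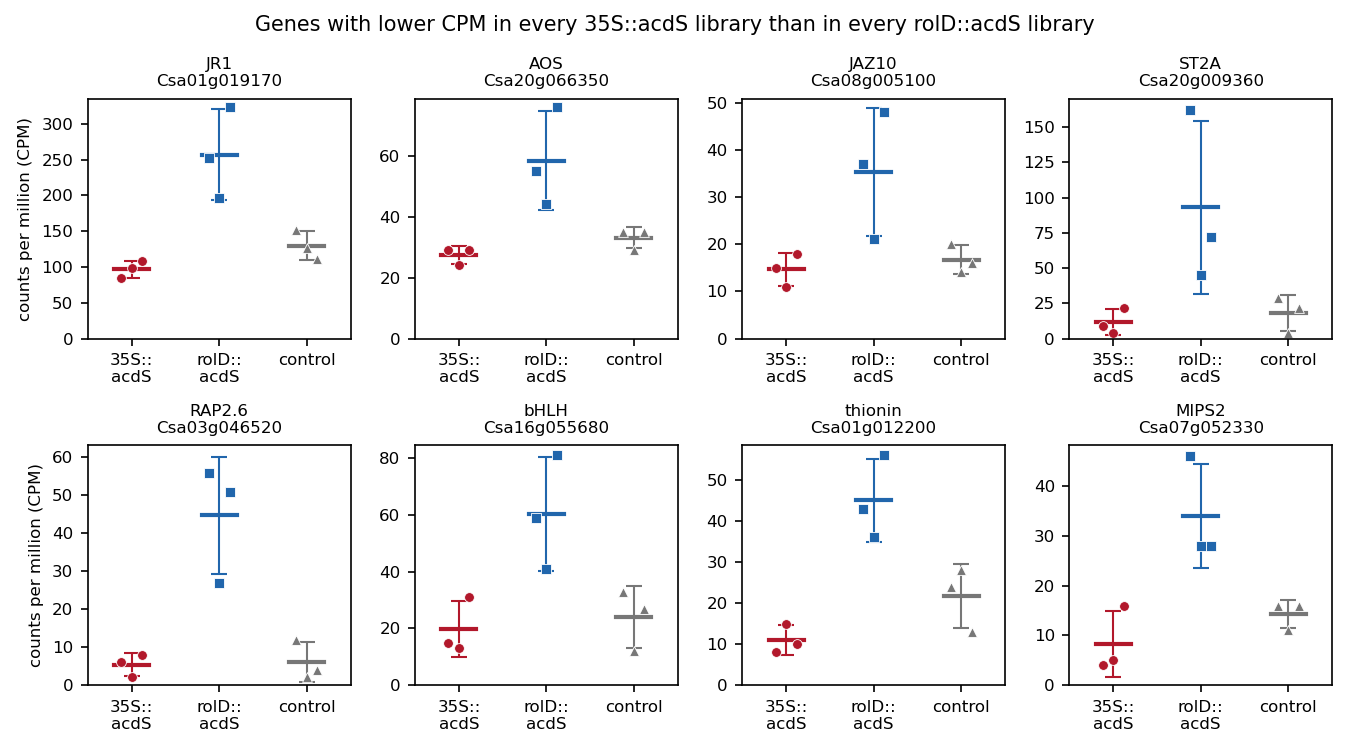
CPM in each library (points) with the group mean (bar) and SD (whiskers, n = 3) of 8 genes in 35S::acdS, rolD::acdS and control roots, each panel on its own linear axis. In every panel the 3 35S::acdS values lie below the 3 rolD::acdS values, as for RAP2.6 with 2 to 8 CPM in 35S::acdS against 27 to 56 CPM in rolD::acdS roots.

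AP2/ERF transcription factors, the family to which the ethylene response factors belong, split. Of 9 tested, 4 were lower and 0 higher in 35S::acdS roots at an unadjusted p of at most 0.05, and the median log2 difference was -0.77. Leaving out 1 library of either line gave 3 to 4 lower and 0 to 1 higher. RAP2.6 (Csa03g046520), an ERF linked to stress and jasmonate in Arabidopsis, had 6, 2 and 8 CPM in 35S::acdS roots, against 56, 27 and 51 CPM in rolD::acdS roots and 12, 2 and 4 CPM in control roots. The log2 difference was -3.06 (95% interval -4.42 to -1.70, adjusted p = 0.347 in limma), and the rolD::acdS libraries stood above the 6 libraries of 35S::acdS and the control. The second RAP2.6 gene, Csa17g069360, had 0, 0 and 2 CPM in 35S::acdS roots against 4, 1 and 6 CPM in rolD::acdS roots, which overlapped. TOE3, an AP2-type repressor of flowering, had 10, 8 and 6 CPM in 35S::acdS against 14, 14 and 18 CPM in rolD::acdS for Csa18g040290, and 2, 1 and 2 CPM in 35S::acdS against 4, 4 and 5 CPM in rolD::acdS for Csa02g075520. The remaining members, ERF6, ERF105, ERF106 and a DREB-like gene, had log2 differences between -0.77 and 0.94. Both ERF105 genes had their highest value in 35S::acdS replicate 1, at 45 CPM for Csa18g022000 and 55 CPM for Csa11g082690, and overlapped between the lines otherwise.

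Basic helix-loop-helix (bHLH) transcription factors had lower values in 35S::acdS roots throughout. All 9 tested had a log2 difference below 0, 8 of them at an unadjusted p of at most 0.05 with libraries that did not overlap, and the median was -1.36. The count was also 8 with any 1 library of either line left out. The genes had been listed for rolD::acdS, so the direction was in part fixed by that choice. The 3 homeologs assigned to Arabidopsis AT1G62975, Csa16g055680, Csa07g064290 and Csa09g097670, had log2 differences of -1.64 (SE 0.484), -1.73 (SE 0.473) and -1.36 (SE 0.415). Csa16g055680 had 15, 13 and 31 CPM in 35S::acdS roots, against 59, 41 and 81 CPM in rolD::acdS roots and 33, 12 and 27 CPM in control roots. NAI1 (Csa16g044520), required for endoplasmic reticulum bodies in Arabidopsis, differed by less but with less spread. It had 44, 41 and 41 CPM in 35S::acdS roots, against 57, 62 and 74 CPM in rolD::acdS roots, a log2 difference of -0.60 (SE 0.11, adjusted p = 0.318 in limma). Of the 9 genes, Csa12g027810 was the exception, with 2, 3 and 5 CPM in 35S::acdS against 4, 4 and 7 CPM in rolD::acdS and overlapping libraries. Among 4 MYB factors, MYB102 (Csa11g025000) was listed at 0 in all 35S::acdS and all control libraries, against 1, 1 and 2 CPM in rolD::acdS. MYB29 (Csa08g056690), an activator of aliphatic glucosinolate synthesis, had 9, 12 and 19 CPM in 35S::acdS against 19, 27 and 34 CPM in rolD::acdS, with its highest 35S::acdS value equal to its lowest rolD::acdS value. It was the 1 of 5 glucosinolate genes at an unadjusted p of at most 0.05.

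Most defence genes of the lists had lower values in 35S::acdS roots. Of 11 thionins and defensins, small cysteine-rich antimicrobial proteins, 8 were lower and 0 higher at an unadjusted p of at most 0.05, and the median log2 difference was -1.58. With 1 library of either line left out, 6 to 9 were lower. Thionin Csa01g012200 had 8, 15 and 10 CPM in 35S::acdS roots, against 43, 36 and 56 CPM in rolD::acdS roots and 24, 28 and 13 CPM in control roots. Its log2 difference between the lines was -2.01 (95% interval -2.66 to -1.35, adjusted p = 0.166 in limma). The control libraries lay between the lines except for 1 at 13 CPM. Thionin Csa14g054980 had 4, 6 and 8 CPM in 35S::acdS against 15, 15 and 14 CPM in rolD::acdS roots, and thionin Csa15g014900 had 12, 19 and 21 CPM in 35S::acdS against 39, 42 and 33 CPM in rolD::acdS. In Csa15g014900 the control values of 34, 34 and 27 CPM were near those of rolD::acdS. Defensin 1.2 (Csa10g040380), a classic target of ethylene and jasmonate together, did not follow them, with 188, 56 and 79 CPM in 35S::acdS roots, against 59, 68 and 41 CPM in rolD::acdS roots and a log2 difference of 0.77 (SE 0.547). Defensin 1.2C (Csa07g047380) had 3, 1 and 0 CPM in 35S::acdS against 0, 5 and 11 CPM in rolD::acdS, a log2 difference of -1.20 (SE 1.04), and both defensins overlapped. Thionins of this family are close relatives of each other, and reads that fit several near-identical copies could make the value of each single gene uncertain, as for all homeologs named here.

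Of 14 genes of salicylic acid signalling and pathogenesis-related proteins, 9 were lower and 0 higher in 35S::acdS roots at an unadjusted p of at most 0.05, with a median log2 difference of -0.89, or -0.75 without the 3 genes that were at 0 in a whole line. Leaving out 1 library of either line gave 6 to 9 lower. Over all tested genes the share at that p was 4.01% lower and 3.51% higher. All but a basic chitinase (Csa15g016370) had been listed for 35S::acdS, and the list median of 35S::acdS against the control was -1.21. The direction was therefore in part fixed by that choice. NIMIN-2, whose product binds the salicylic acid co-activator NPR1, had lower means in 35S::acdS roots in all 3 homeologs. Csa04g011120 had 5, 6 and 4 CPM in 35S::acdS roots, against 8, 23 and 11 CPM in rolD::acdS roots and 11, 15 and 14 CPM in control roots, and Csa06g005460 had 11, 12 and 11 CPM in 35S::acdS against 17, 35 and 18 CPM in rolD::acdS. Replicate 2 was the highest rolD::acdS library in each NIMIN-2 homeolog, and also for BG1 (Csa06g033000), a glucanase, with 5, 10 and 9 CPM in 35S::acdS against 21, 42 and 17 CPM in rolD::acdS. OSM34 (Csa13g048800), an osmotin-like protein, had 10, 19 and 15 CPM in 35S::acdS against 23, 33 and 23 CPM in rolD::acdS. A chitinase (Csa05g006780) was listed at 0 in every 35S::acdS library, against 2, 1 and 1 CPM in rolD::acdS and 2, 2 and 1 CPM in control roots. The marker gene PR1 (Csa19g044900) had 1, 1 and 0 CPM in both lines, and a PR1-like gene (Csa12g010010) had 46, 45 and 40 CPM in 35S::acdS and 110, 36 and 23 CPM in rolD::acdS roots.

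Auxin genes had mostly higher values in 35S::acdS roots. Of 13 tested, 4 were higher and 0 lower in 35S::acdS roots at an unadjusted p of at most 0.05, and the median log2 difference was 0.54, or 0.48 without the gene at 0 in a whole line. With 1 library of either line left out, 2 to 4 genes were higher and the median was 0.26 to 0.75. The count was 2 when the library left out was replicate 1 or 3 of 35S::acdS or replicate 2 or 3 of rolD::acdS. The members are GH3 enzymes, which conjugate auxin to amino acids, and glucosyltransferases of the UGT family, some of which attach glucose to auxins. UGT74E2, which glucosylates indole-3-butyric acid, had 119, 107 and 126 CPM in 35S::acdS roots, against 74, 57 and 73 CPM in rolD::acdS roots and 53, 22 and 63 CPM in control roots for Csa14g007040. Its homeolog Csa17g009070 had 71, 68 and 62 CPM in 35S::acdS against 38, 31 and 38 CPM in rolD::acdS roots. Their log2 differences were 0.79 (SE 0.32) and 0.90 (SE 0.38), and in both the libraries of the lines did not overlap. UGT74D1 (Csa05g029410) had 17, 15 and 14 CPM in 35S::acdS, against 8, 7 and 11 CPM in rolD::acdS and 9, 7 and 7 CPM in control roots, a log2 difference of 0.81 (SE 0.216, adjusted p = 0.491 in limma). GH3.2 (Csa10g003770) had 2, 1 and 1 CPM in 35S::acdS roots and was listed at 0 in all rolD::acdS and control libraries. The 3 UGT73C7 homeologs overlapped between the lines, with log2 differences of 0.27 to 0.42. AIR1 (Csa13g050980), an auxin-induced root gene, had 6, 12 and 22 CPM in 35S::acdS, against 19, 31 and 22 CPM in rolD::acdS and 20, 61 and 106 CPM in control roots. Of 3 abscisic acid genes, BGLU18 (Csa17g092400), which frees abscisic acid from its glucose ester, had 0, 0 and 1 CPM in 35S::acdS against 4, 1 and 7 CPM in rolD::acdS, while the synthesis gene NCED3 and the receptor PYL6 had log2 differences of -0.45 (SE 0.291) and 0.53 (SE 0.607).

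**Figure D4:**
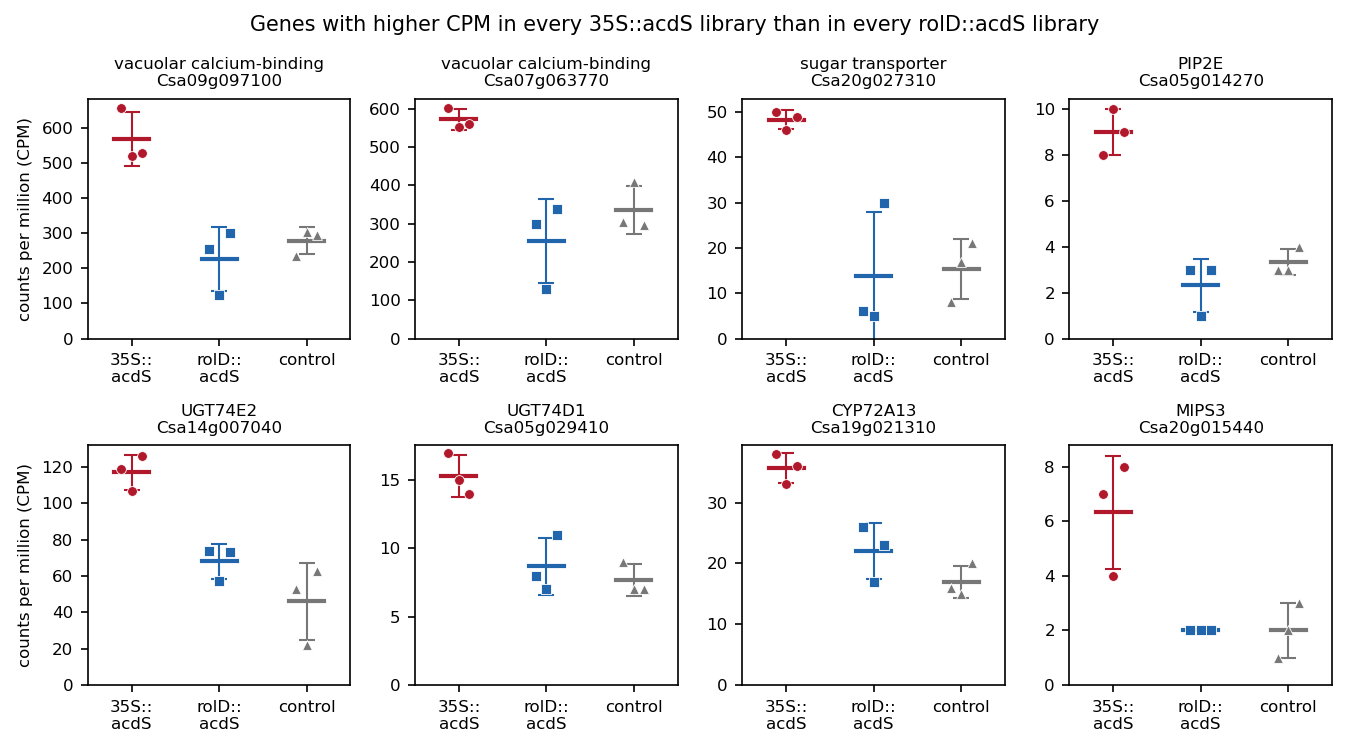
CPM in each library (points) with the group mean (bar) and SD (whiskers, n = 3) of 8 genes in 35S::acdS, rolD::acdS and control roots, each panel on its own linear axis. In every panel the 3 35S::acdS values lie above the 3 rolD::acdS values, as for the vacuolar calcium-binding gene Csa09g097100 with 518 to 655 CPM in 35S::acdS against 124 to 301 CPM in rolD::acdS roots.

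Genes for calcium-binding proteins, aquaporins and sugar transporters had the highest list medians. Of 5 calcium-binding genes 2 were higher and 0 lower at an unadjusted p of at most 0.05, with a list median of 1.28, and both encode the vacuolar calcium-binding protein assigned to Arabidopsis AT1G62480. Leaving out 1 library of either line gave list medians of 0.38 to 1.45, lowest without replicate 1 of 35S::acdS, and 4 higher genes without replicate 2 of 35S::acdS. Csa09g097100 had 655, 518 and 527 CPM in 35S::acdS roots, against 254, 124 and 301 CPM in rolD::acdS roots and 234, 304 and 295 CPM in control roots. Csa07g063770 had 602, 553 and 560 CPM in 35S::acdS, against 298, 130 and 337 CPM in rolD::acdS and 304, 408 and 296 CPM in control roots. Their log2 differences between the lines were 1.41 (95% interval 0.58 to 2.24) and 1.28 (0.43 to 2.13), with adjusted p of 0.491 and 0.522 in limma. In both, every 35S::acdS library lay above every rolD::acdS and control library, and rolD::acdS replicate 2 was the lowest. The 3 EF-hand genes of the same list had log2 differences of 0.83 to 1.36 that rested on 35S::acdS replicate 1, and overlapped between the lines.

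PIP2E, an aquaporin of the plasma membrane, had 8, 10 and 9 CPM in 35S::acdS roots, against 3, 1 and 3 CPM in rolD::acdS and 3, 3 and 4 CPM in control roots for Csa05g014270, and 2, 2 and 3 CPM in 35S::acdS against 1, 0 and 1 CPM in rolD::acdS for Csa06g042950. Of the 5 aquaporins 3 were higher at an unadjusted p of at most 0.05, or 1 when replicate 3 of 35S::acdS or replicate 2 of rolD::acdS was left out. The 3 included NIP2-1 (Csa06g036830), which is also in the low-oxygen list. NIP2-1 had 1, 2 and 8 CPM in 35S::acdS against 1, 0 and 0 CPM in rolD::acdS and overlapped. The tonoplast aquaporins TIP1-1 and TIP2-2 had log2 differences of -0.14 (SE 0.236) and 0.01 (SE 0.392). Among 8 sugar transporters 4 were higher and 2 lower in 35S::acdS at an unadjusted p of at most 0.05. The higher count was 2 when replicate 1 or 3 of 35S::acdS or replicate 2 of rolD::acdS was left out, and the lower count was 1 without any of those or replicate 3 of rolD::acdS. The sugar transporter Csa20g027310, assigned to AT5G18840, had 50, 46 and 49 CPM in 35S::acdS roots, against 6, 5 and 30 CPM in rolD::acdS roots and 8, 17 and 21 CPM in control roots. The 35S::acdS libraries were nearly equal and rolD::acdS replicate 3 stood nearer to them than the other 2, which left a log2 difference of 2.25 with an interval of 0.75 to 3.74. Its homeolog Csa08g011370 had 71, 89 and 63 CPM in 35S::acdS against 21, 17 and 71 CPM in rolD::acdS and overlapped through the same library. SUC1, a sucrose and proton symporter, overlapped in all 3 homeologs through rolD::acdS replicate 1, with 135, 110 and 136 CPM in 35S::acdS and 114, 33 and 49 CPM in rolD::acdS for Csa07g038820. SWEET16 (Csa19g023540), a sugar carrier of the vacuolar membrane, was lower instead, with 6, 5 and 6 CPM in 35S::acdS roots against 13, 9 and 17 CPM in rolD::acdS roots and 6, 7 and 7 CPM in control roots.

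Sugar, inositol and polyamine metabolism was mixed by step. At an unadjusted p of at most 0.05, 0 of 5 genes of sucrose and starch breakdown were higher and 2 lower, and 2 of 10 genes for raffinose, galactose and myo-inositol were higher and 5 lower. With 1 library of either line left out, these counts were 2 to 3 lower in the first list, and 1 to 3 higher and 4 to 5 lower in the second. The vacuolar invertase VAC-INV, which splits sucrose, had log2 differences of -1.44 (SE 0.386) for Csa03g015980, -1.48 (SE 0.366) for Csa14g015170 and -0.79 (SE 0.384) for Csa17g016450. Csa03g015980 had 26, 18 and 48 CPM in 35S::acdS roots, against 78, 60 and 99 CPM in rolD::acdS roots and 37, 20 and 26 CPM in control roots. Inositol-phosphate synthase, the first step to myo-inositol, was represented by MIPS2 and MIPS3 with opposite signs. MIPS2 Csa07g052330 had 4, 5 and 16 CPM in 35S::acdS roots, against 46, 28 and 28 CPM in rolD::acdS and 16, 11 and 16 CPM in control roots, a log2 difference of -2.18 (95% interval -3.33 to -1.03). MIPS3 (Csa20g015440) had 7, 4 and 8 CPM in 35S::acdS, against 2 CPM in every rolD::acdS library and 1, 2 and 3 CPM in control roots, a log2 difference of 1.40 (0.74 to 2.06). Galactinol synthase GolS4 (Csa07g061680), which starts raffinose synthesis, had 13, 23 and 17 CPM in 35S::acdS against 31, 36 and 26 CPM in rolD::acdS. The raffinose synthases had log2 differences of 0.45 (SE 0.201) and 0.29 (SE 0.277). All 4 polyamine genes were lower at an unadjusted p of at most 0.05 with libraries that did not overlap. The count of lower genes was 2 without replicate 1 of 35S::acdS and 3 without any other library of the lines. ADC2, arginine decarboxylase of putrescine synthesis, had 152, 159 and 349 CPM in 35S::acdS roots, against 422, 432 and 646 CPM in rolD::acdS for Csa10g007430. In control roots that gene had 211, 203 and 176 CPM. Log2 differences of the 3 ADC2 homeologs from the control were 0.05 to 0.16 in 35S::acdS and 0.94 to 1.32 in rolD::acdS roots. Replicate 3 was the highest library of both lines in all 3 ADC2 homeologs. In SDT (Csa09g087770), a spermidine acyltransferase, with 23, 29 and 22 CPM in 35S::acdS against 41, 38 and 32 CPM in rolD::acdS, the control values of 49, 53 and 57 CPM lay above both lines.

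Most ion transporters had lower values in 35S::acdS roots. Of 9 tested, 4 were lower and 0 higher at an unadjusted p of at most 0.05, and the median was -0.62, or -0.56 without the 2 genes at 0 in a whole line. Without rolD::acdS replicate 1, which was the highest rolD::acdS library for both HKT1 and all 3 SKOR genes, the median was -0.08 with 3 genes lower. HKT1 Csa02g026480 had 20, 39 and 26 CPM in 35S::acdS roots, against 75, 46 and 40 CPM in rolD::acdS roots and 70, 72 and 45 CPM in control roots, a log2 difference between the lines of -0.91 (SE 0.288). The homeolog Csa08g040240 overlapped by 1 library, with 24, 45 and 30 CPM in 35S::acdS against 84, 55 and 41 CPM in rolD::acdS. KAT1 (Csa11g065760), an inward potassium channel, was listed at 0 in all 35S::acdS libraries, against 1, 6 and 6 CPM in rolD::acdS and 1 CPM in every control library. CAX7 (Csa20g026050), a cation exchanger, was likewise listed at 0 in 35S::acdS and at 1 CPM in every rolD::acdS and control library. SKOR, which releases potassium into the xylem, overlapped in all 3 homeologs, with log2 differences between -0.62 and -0.46. HKT1 and SKOR are expressed in the root stele, and the sum of their 5 genes was 49, 92 and 64 CPM in 35S::acdS roots, against 187, 109 and 86 CPM in rolD::acdS and 191, 207 and 136 CPM in control roots. The part of stele content in the HKT1 difference was not tested.

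Genes of the low-oxygen response, in which ethylene takes part, all had log2 differences above 0. All 8 tested had been listed for rolD::acdS, where their median lay below the control, so the direction was in part fixed by that choice. Of 8 tested, 2 were higher in 35S::acdS at an unadjusted p of at most 0.05, and the median was 0.74. Leaving out replicate 1 of 35S::acdS gave 6. Leaving out replicate 2 of 35S::acdS or replicate 1 of rolD::acdS gave 1, and leaving out any of the other 3 libraries of the lines gave 0. The 2 higher genes with all libraries included NIP2-1 (Csa06g036830), which is also in the aquaporin list. Pyruvate decarboxylase 2 (Csa11g088050), an enzyme of fermentation, was the one without overlap, with 13, 16 and 21 CPM in 35S::acdS roots, against 9, 10 and 10 CPM in rolD::acdS and 13, 19 and 30 CPM in control roots. The other pyruvate decarboxylase (Csa12g011790) had 7, 19 and 72 CPM in 35S::acdS against 9, 9 and 11 CPM in rolD::acdS and 15, 22 and 70 CPM in control roots. The 3 LBD41 homeologs, transcription factors of the same response, overlapped too, and in each the highest 35S::acdS library was replicate 3. Both lines had a list median below the control, at -0.59 in 35S::acdS and -1.38 in rolD::acdS.

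The chlorophyll-binding genes of the lists were low in all roots. Of 4 chlorophyll-binding genes, 35S::acdS roots had 2 higher and 1 lower at an unadjusted p of at most 0.05, and 0 had separate libraries. The higher count was 0 when replicate 3 of 35S::acdS or replicate 1 of rolD::acdS was left out, 3 without replicate 1 of 35S::acdS and 1 without any other library of the lines. Their sum was 5, 10 and 20 CPM in 35S::acdS roots, against 4, 6 and 7 CPM in rolD::acdS roots, and was 4 CPM in every control library. The sum was highest in 35S::acdS replicate 3, and the part of green tissue in other differences was not tested. Of 6 clock and light genes PIF5 (Csa04g046570), a phytochrome-interacting factor, was the 1 that reached an unadjusted p of at most 0.05. The count was 2 when replicate 1 of rolD::acdS was left out, and 0 without replicate 1 of 35S::acdS or replicate 2 or 3 of rolD::acdS. PIF5 had 8, 5 and 5 CPM in 35S::acdS and 6, 1 and 1 CPM in rolD::acdS, which overlapped. The 3 homeologs of the clock gene LHY had log2 differences of -0.01, 0.06 and 0.01.

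Among enzymes of secondary metabolism and the cell wall, single members stood out in both directions. Cytochrome P450 enzymes, with 18 tested, had 3 higher and 7 lower in 35S::acdS roots at an unadjusted p of at most 0.05, the higher count being 1 when replicate 2 of either line was left out. The 7 lower genes included AOS and HPL1, which are also in the jasmonate list. CYP72A13 (Csa19g021310) had 38, 33 and 36 CPM in 35S::acdS roots, against 26, 17 and 23 CPM in rolD::acdS and 16, 15 and 20 CPM in control roots. CYP78A8 (Csa03g002050) had 7, 8 and 9 CPM in 35S::acdS against 17, 16 and 10 CPM in rolD::acdS. Neither passed the adjusted test, at log2 differences of 0.70 (SE 0.179) and -0.77 (SE 0.218). Both genes of PAD3, the last step to the phytoalexin camalexin, were lower at an unadjusted p of at most 0.05 but overlapped. In the cell wall list 1 of 12 was higher and 5 were lower (0 to 1 and 3 to 5 with 1 library of either line left out). The mannan-degrading mannanase Csa14g002340 had 5, 3 and 6 CPM in 35S::acdS roots, against 13 CPM in every rolD::acdS library and 5, 3 and 4 CPM in control roots. CSLG3 (Csa10g019050), a cellulose synthase-like protein, had 25, 17 and 16 CPM in 35S::acdS, against 10, 10 and 14 CPM in rolD::acdS and 6, 4 and 4 CPM in control roots, so both lines lay above the control and 35S::acdS further. Of 9 peroxidases APX5 (Csa10g006090) was the 1 at an unadjusted p of at most 0.05, or 1 of 2 when replicate 1 or 2 of 35S::acdS or replicate 3 of rolD::acdS was left out, with 8, 9 and 7 CPM in 35S::acdS against 13, 12 and 11 CPM in rolD::acdS and 16, 14 and 14 CPM in control roots. Among 11 lipid-transfer proteins 3 were higher and 4 lower (1 to 3 and 2 to 5 with 1 library of either line left out), the highest being Csa04g063080 with 3, 3 and 6 CPM in 35S::acdS against 1, 0 and 0 CPM in rolD::acdS.

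Chaperones, with 6 genes tested, had 2 higher and 2 lower in 35S::acdS roots at an unadjusted p of at most 0.05, and the libraries of all 4 were separate. These counts were the same with any 1 library of the lines left out. HSP40 Csa16g035090 had 4, 2 and 5 CPM in 35S::acdS against 1 CPM in every rolD::acdS library, and the co-chaperone GrpE (Csa09g053100) had 4, 3 and 2 CPM in 35S::acdS against 5, 6 and 6 CPM in rolD::acdS. Of 14 genes for nitrogen and amino acids 2 were higher and 2 lower (1 to 2 and 0 to 3 with 1 library of either line left out), and FluG-like Csa09g061450 had 23, 22 and 18 CPM in 35S::acdS against 14, 9 and 13 CPM in rolD::acdS. GDU3 (Csa18g030770), of the same list, had 30, 29 and 29 CPM in 35S::acdS against 36, 45 and 41 CPM in rolD::acdS. Of 5 regulators of flowering 0 were higher and 2 lower at an unadjusted p of at most 0.05 (0 without replicate 2 of rolD::acdS, 1 without replicate 1 of 35S::acdS and 5 without replicate 2 of 35S::acdS), and all had log2 differences below 0. Among them FPF1 (Csa13g030640), a flowering-promoting factor, had 4, 5 and 4 CPM in 35S::acdS against 7, 10 and 6 CPM in rolD::acdS. ATC (Csa07g061090), a relative of the floral repressor TFL1, had 2, 12 and 14 CPM in 35S::acdS against 15, 34 and 17 CPM in rolD::acdS.

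Genes listed against the control in both lines had a median log2 difference of 0.16 between the lines. Of 9 tested, 1 (CSLG3) was higher in 35S::acdS at an unadjusted p of at most 0.05. With 1 library of either line left out the count was 0 to 2. Their median log2 difference from the shared control libraries was 1.94 for 35S::acdS roots and 1.58 for rolD::acdS roots. The genes had been listed for a difference from these same control libraries, so both medians were in part fixed by that choice. ASN1 (Csa06g020990), asparagine synthetase, had 71, 20 and 19 CPM in 35S::acdS, against 15, 39 and 28 CPM in rolD::acdS and 11, 6 and 12 CPM in control roots. DIN2 (Csa05g091890), a beta-glucosidase induced by darkness, had 57, 24 and 21 CPM in 35S::acdS and 17, 52 and 35 CPM in rolD::acdS. In both genes the highest 35S::acdS library was replicate 1 and the highest rolD::acdS library replicate 2, and the DIN2 log2 difference of -0.04 had a 95% interval of -1.20 to 1.13. A Nod19-like gene (Csa18g035240) had 24, 16 and 7 CPM in 35S::acdS, against 8, 11 and 10 CPM in rolD::acdS and 1, 1 and 2 CPM in control roots. The extensin-2-like gene Csa16g023060 lay below the control in both, with 58, 52 and 89 CPM in 35S::acdS, against 72, 62 and 64 CPM in rolD::acdS and 133, 138 and 106 CPM in control roots.

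**Figure D5:**
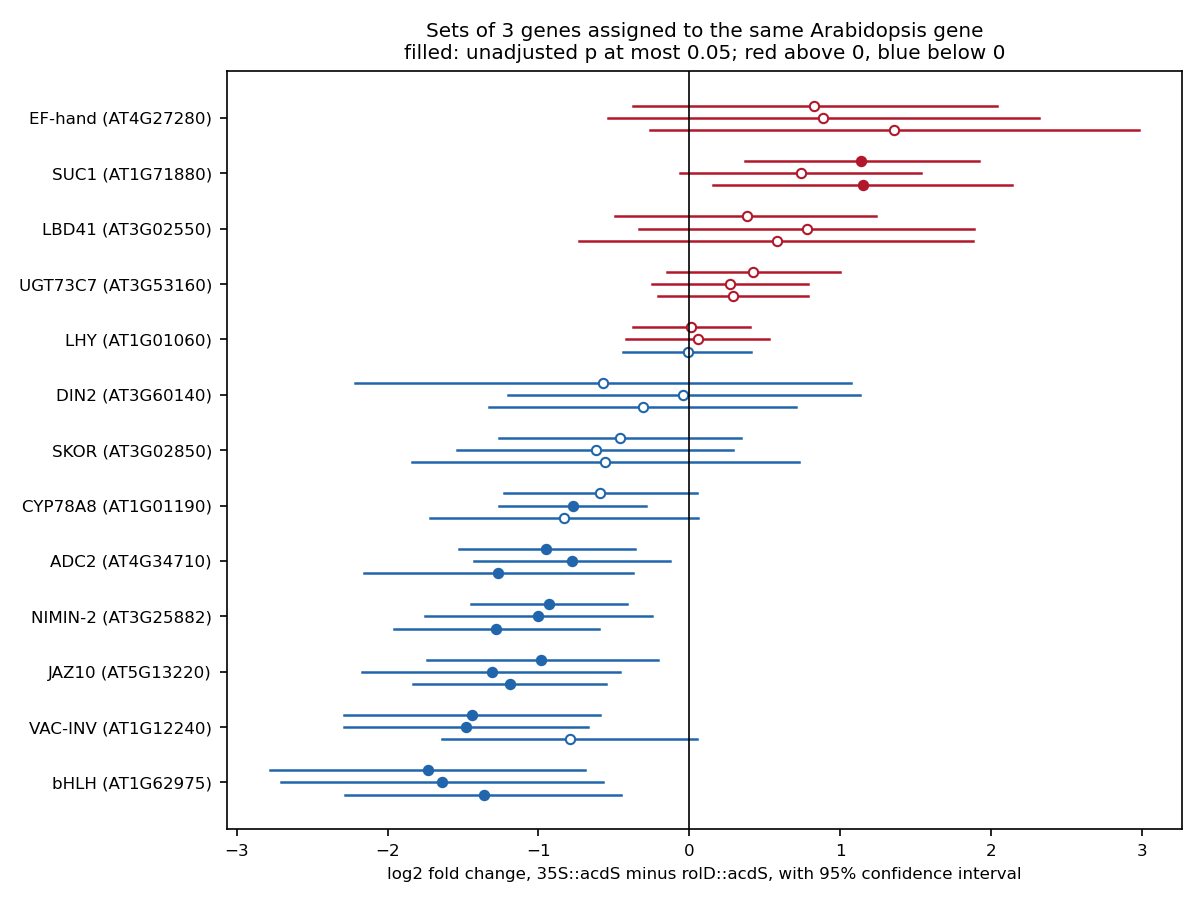
Log2 difference, 35S::acdS minus rolD::acdS, with its 95% confidence interval, for the 13 sets of 3 listed genes assigned to the same Arabidopsis gene; filled points have an unadjusted p of at most 0.05. In 12 of the 13 sets the 3 members have the same sign, and in 4 sets (ADC2, NIMIN-2, JAZ10 and the bHLH set) all 3 have filled points below 0.

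Listed homeologs of the hexaploid genome had similar differences. The lists held 42 sets of genes assigned to the same Arabidopsis gene, 29 of 2 members and 13 of 3. In 38 of the 42 the log2 differences of all members had the same sign, and in 16 all members had an unadjusted p of at most 0.05. The median range within a set was 0.385 log2 units. The sets held only genes that the study had listed, and homeologs that it did not list were left out. The agreement in sign was therefore in part fixed by that choice. Such agreement is not a replicate of the comparison, since homeologs are measured in the same libraries. How reads that fit several homeologs were counted is not given in the sources used here.

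Outside the lists, the most separated genes among those with a group mean of at least 10 CPM differed by small amounts with little spread. Of the 10 lowest in 35S::acdS by unadjusted p, 3 were the thionins Csa01g012200 and Csa14g054980 and the lectin JR1. Csa09g077840 had 38, 35 and 39 CPM in 35S::acdS roots, against 67, 61 and 59 CPM in rolD::acdS and 45, 42 and 37 CPM in control roots, a log2 difference of -0.73 (SE 0.0994, adjusted p = 0.135 in limma). Csa02g001730, annotated by the study as a remorin family protein, had 30, 40 and 42 CPM in 35S::acdS against 62, 76 and 83 CPM in rolD::acdS and 75, 61 and 60 CPM in control roots. Here the rolD::acdS and control libraries overlapped and the 35S::acdS libraries lay below all of them. Csa06g021730 had 12, 13 and 12 CPM in 35S::acdS against 20, 26 and 19 CPM in rolD::acdS, Csa20g048720 had 7 CPM in every 35S::acdS library against 11, 10 and 14 CPM in rolD::acdS, and Csa10g011990 had 31, 27 and 29 CPM in 35S::acdS against 39, 43 and 41 CPM in rolD::acdS. In Csa15g018520, with 10, 11 and 11 CPM in 35S::acdS, 16 CPM in every rolD::acdS library and 13 CPM in every control library, the control lay between the lines. Csa17g050290 had the same order, with 7, 8 and 7 CPM in 35S::acdS, 11 CPM in every rolD::acdS library and 9, 9 and 10 CPM in control roots.

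The 10 most separated genes that were higher in 35S::acdS have no annotation in the sources used here. Their log2 differences were 0.43 to 0.73, with adjusted p of 0.268 to 0.413 in limma. Csa10g020290 had 14 CPM in every 35S::acdS library, against 10, 8 and 9 CPM in rolD::acdS roots and 11, 12 and 13 CPM in control roots. Csa06g001460 had 61, 64 and 58 CPM in 35S::acdS against 47, 36 and 41 CPM in rolD::acdS and 54, 54 and 52 CPM in control roots, and Csa10g028750 had 64, 62 and 59 CPM in 35S::acdS against 49, 43 and 41 CPM in rolD::acdS and 50, 50 and 54 CPM in control roots. In these 3 genes too the control libraries lay between the lines. Csa03g022970 had 18, 16 and 18 CPM in 35S::acdS against 12, 10 and 9 CPM in rolD::acdS and 14, 15 and 18 CPM in control roots, and Csa10g001110 had 24 CPM in every 35S::acdS library against 19, 17 and 17 CPM in rolD::acdS. The others, Csa08g059510, Csa05g095760, Csa07g006790, Csa11g009430 and Csa03g008580, had 10 to 30 CPM in 35S::acdS and 6 to 19 CPM in rolD::acdS roots.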

How the data were processed

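Root RNA-seq libraries of 35S::acdS, rolD::acdS, control and 8R6 plants (3 biological replicates each, by the labels) were analysed from 1 deposited table. Per the labels and the study's methods, reads of stranded libraries were trimmed (Trimmomatic) and mapped to the C. sativa genome and to NCBI transcripts (STAR). The study names both an mRNA and a total RNA library kit. Reads were counted per gene by the authors, who named DESeq for a further normalization and edgeR for testing. Whether the deposited CPM carry that further normalization is not stated. Versions were not stated. The deposited values are CPM and are recorded here as a score, because the authors appear to have rounded them to whole numbers: 0 values were not whole. Reads per library are not given in the sources used here, so no counting interval or floor is given, and values of 0 to 2 CPM carry a large rounding error.

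Values were transformed to log2(CPM + 0.5), genes with at least 1 CPM in at least 3 of 12 libraries were kept, and group means were fitted with limma 3.58.1 (R 4.3.3) with a trended prior (8 residual and 2.593 prior degrees of freedom). P-values were adjusted over all 48099 genes by the Benjamini-Hochberg method. The code was tested on simulated data. Another 1453 genes were at 0 everywhere and 380 were below the filter. P-values set the difference of group means against the spread of libraries within groups, estimated over all 12 libraries and moderated by the prior.

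Genes were named if called, if among the 10 most separated per direction with a group mean of at least 10 CPM, if a list member with an unadjusted p of at most 0.05 and separate libraries (or its homeolog), or if listed in both lines. The other list members given in the text, and the genes with oligonucleotides, fall outside this rule and were chosen after their values were seen. The members and lists were chosen with earlier results of these data known. Gene names come from the study's annotation. Of the list genes, 10 had no row and are not analysed here. The RefSeq gene table matched 0 identifiers. Alternatives covered the pseudocount, filter, scaling, samples fitted, variance model, replicate block and leaving out each library. A second sheet of the table was not used.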

Additional observations from a re-analysis of the deposited data

Results flagged for a closer look

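In 6 of the 118 named genes every library of 1 line lay above every control library and every library of the other line below. The lines thus lay on opposite sides of the same control libraries. JR1 (Csa01g019170), Csa15g018520 and Csa17g050290 were below the control in 35S::acdS and above it in rolD::acdS, with log2 differences between the lines of -1.38, -0.56 and -0.56. Csa06g001460, Csa10g020290 and Csa10g028750 were above the control in 35S::acdS and below it in rolD::acdS, with differences of 0.56, 0.62 and 0.47. The difference between the lines was tested by limma, and none of the 6 passed after adjustment (adjusted p of 0.166 to 0.413). Over all 48099 tested genes, 17 had 35S::acdS above and rolD::acdS below the control and 20 had the reverse, and the named genes were picked for separate libraries. How many genes would show this order by chance was not worked out, so the 6 are given as a description only.

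The called genes Csa11g007100 and Csa20g039340 each differed by 1.58 on the log2 scale, at 1 CPM in every 35S::acdS library and 0 CPM in every rolD::acdS library. A step between 0 and 1 is the smallest that values rounded to whole CPM can show.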

How the results depend on the processing

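Called genes (2 higher and 0 lower in 35S::acdS) numbered 0 with a pseudocount of 1, with a filter at a mean of 5 CPM, with median-of-ratios size factors, with the robust variance model and with the replicate block, 8 without a trend and 39 (24 higher, 15 lower) when only the 6 libraries of the lines were fitted. Leaving out 1 library gave 0 to 10 called genes, 0 without any single 35S::acdS library, without rolD::acdS replicate 2 or without control replicate 2 or 3, and 10 without 8R6 replicate 1. Csa11g007100 and Csa20g039340 were each called in 11 of the 21 alternatives that tested them, the filter at a mean of 5 CPM having removed both (adjusted p in limma of 6.44e-06 to 0.28). The count at an unadjusted p of at most 0.05 was 2395 without rolD::acdS replicate 2 and 5621 without rolD::acdS replicate 1, against 3620 with all libraries. The other 20 alternatives for that count, and all alternatives for the total of 112 list members, were within 1.5 times, but the 31 higher members were 14 when replicate 2 of rolD::acdS was left out and 17 when replicate 3 of 35S::acdS was. Deviations of same-numbered libraries of the lines correlated weakly, at 0.125, 0.0802 and 0.11, against -0.105 to 0.0159 for libraries of different numbers. In this, 6 of 6 libraries correlated best with their own number in the other line. The main fit did not use the replicate numbers, and what same-numbered libraries had in common was not tested. The replicate block gave 4356 genes at an unadjusted p of at most 0.05, against 3620 without it, and 116 list members. The sign of 5 small differences depended on single libraries. Leaving out 1 library gave -0.25 to 0.41 for Csa02g069860, -0.48 to 0.32 for Csa05g091890, -0.38 to 0.56 for Csa06g020990, -0.79 to 0.61 for Csa13g014240 and -0.26 to 0.12 for Csa16g023060. The median of all genes stayed at 0.00 in every setting.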
